A study of Homo sapiens with 52 samples.

Results

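The interleukin 1 (IL-1) family was followed through 8 genes, chosen by their symbols out of the 59408 genes in the files. These were the ligands IL1A, IL1B, IL18 and IL33, the receptor antagonist IL1RN, and the receptor chains IL1R1, IL1RAP and IL1RL1. All 8 were found. The rule used symbols alone, though it was written with earlier results of these data known. The samples were WI-38 cells, a wild-type line of normal human lung fibroblasts that stops dividing after a limited number of passages. Cells were exposed for 24 h to 0.009% SDS, a detergent that damages the plasma membrane (PMD-Sen), to 75 mM KCl, which lets calcium into the cell (Ca2+-Sen), or to 250 nM doxorubicin (DXR), which damages DNA (DDR-Sen), and were then washed. Collection began on day 0, the day of the wash, went on daily to day 4, and was repeated on days 6, 8 and 16. Replicatively senescent cells (RS) had been passaged to a population doubling level of about 52, and untreated cells were young cells that had received no agent. There were 26 groups with 2 labelled libraries apiece, and the files hold 25 distinct tables, each of which sets 1 treated group against the same untreated pair.

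All samples came from 1 cell line. The methods of the study describe the samples of a group as independent, without saying whether these were separate dishes or separate rounds of culture, and the errors below cover the spread between such samples. RNA was measured in bulk, where more cells carrying an RNA and more RNA per cell cannot be told apart. Counts were summed per gene, so soluble and membrane forms of a receptor were not separated, and nothing here measures the cutting or release of a ligand.

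IL-1α (from IL1A) and IL-1β (from IL1B) bind the same receptor, IL1R1, which signals once it has recruited the accessory chain IL1RAP. The adaptor MYD88 and the IRAK kinases then pass the signal on to NF-κB and the MAP kinases. The antagonist encoded by IL1RN occupies IL1R1 without recruiting IL1RAP. IL-1α is active as made and is set free when the plasma membrane breaks, whereas IL-1β and IL-18 are made as precursors that caspase-1 cuts in the inflammasome. IL-33 is stored in the nucleus, and its receptor IL1RL1 (also called ST2) shares IL1RAP with IL1R1. In senescent fibroblasts IL-1α is known as an upstream driver of secreted IL-6 and IL-8.

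A level below is a normalized read count, that is reads divided by the size factor of the library and put on 1 scale for all tables. The whole reads of both libraries could be recovered for all 8 genes in all 26 groups. Libraries are named as the deeper and the shallower of a group, and pairs of values are given in that order. The untreated pair, with 18.8 M and 15.4 M counted reads, was the smallest of all. The RS libraries held 58.0 M and 45.2 M reads, and the medians of PMD-Sen, Ca2+-Sen and DDR-Sen were 29.9 M, 28.4 M and 29.1 M. Fold changes are the deposited log2 fold changes against untreated cells with their standard errors (SE, 2 libraries a group). A gene was tested where its level averaged at least 10 over the 26 groups, which held for 14898 genes, and was called at an adjusted p under 0.05 in a Wald test of fold change over SE, adjusted over all tested genes of a table. IL1B, IL18, IL1R1, IL1RAP and IL1RL1 were tested, and IL1A, IL1RN and IL33 fell under the limit. IL1B and IL1RL1 were under 10 in untreated cells and passed only through the treated groups in which they were then called.

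Most of the family lies on chromosome 2 (GRCh38, GENCODE annotation). The receptor genes IL1R1 (chr2:102064544-102179874, plus strand) and IL1RL1 (chr2:102311502-102352037, plus strand) sit at one end, and IL1A (chr2:112773915-112784590, minus strand), IL1B (chr2:112829751-112836903, minus strand) and IL1RN (chr2:113107214-113134016, plus strand) at the other. IL1RAP lies at chr3:190514051-190659750, IL33 at chr9:6215786-6257983, both on the plus strand, and IL18 at chr11:112143251-112164117 on the minus strand. IL1RL1 and the neighbouring receptor gene IL18R1 share 95 exon bases at chr2:102311529-102311623 on the same strand. IL1R1 shares 11 exon bases with IL1R1-AS1 on the opposite strand, and IL1RAP shares 535 with the noncoding RNA AC108747.1. The strand setting of the counting is not given in the sources used here, so reads in these stretches cannot be assigned with certainty.

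The stretches just upstream of the first exons of IL1A, IL1B and IL1RL1 are shown because these genes changed most from a low start. They come from RefSeq (GRCh38.p14), end where the first annotated exon begins, and are written 5′ to 3′ on the strand of the gene. Capitals mark a TATA match (TATAAA) in IL1A and an AP-1 match (TGANTCA) in IL1RL1, which has a distal and a proximal start. The IL1A match stood 239 bases before the nearer RefSeq start, and the IL1RL1 match 191 bases before the proximal one.
IL1A, chr2:112784591-112784743: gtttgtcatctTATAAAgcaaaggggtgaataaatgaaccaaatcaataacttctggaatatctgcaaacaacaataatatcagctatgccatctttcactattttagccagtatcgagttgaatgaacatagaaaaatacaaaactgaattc
IL1B, chr2:112836904-112837029: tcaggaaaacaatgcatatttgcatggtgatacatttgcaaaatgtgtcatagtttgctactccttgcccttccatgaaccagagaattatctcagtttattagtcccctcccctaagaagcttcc
IL1RL1 distal, chr2:102311313-102311501: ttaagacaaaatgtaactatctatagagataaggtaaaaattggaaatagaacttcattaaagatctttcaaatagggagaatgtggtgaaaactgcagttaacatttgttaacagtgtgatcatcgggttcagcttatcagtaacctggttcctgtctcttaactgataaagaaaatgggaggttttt
IL1RL1 proximal, chr2:102337007-102337147: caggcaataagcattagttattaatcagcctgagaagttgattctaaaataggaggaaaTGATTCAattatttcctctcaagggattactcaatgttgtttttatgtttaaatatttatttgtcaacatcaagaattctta

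The letters TGANTCA (AP-1), TGACGTCA (the cyclic AMP response element), TGACG (its shorter form, contained in it) and TATAAA were searched on both strands. Windows from 250 bases before to 50 after each RefSeq start were on hand for 7 of the 8 genes, all but IL18, in 15 windows, and the search used the 250 bases before the start. Over 35116 windows of all genes, AP-1 letters were in 6.57%, the full response element in 1.65%, the short form in 21.2% and TATAAA in 10.7%. The other matches lay outside the printed stretches. In IL1A, TGACTCA stood 105 bases before one RefSeq start and 12 before the other, TGACG 169 and 76 bases before them, and TGAGTCA 55 bases before the first. In IL1RL1, TATAAA stood 29 bases before the distal start, within the annotated first exon. One IL1R1 window held TATAAA on the opposite strand, 229 and 124 bases before the start. In IL1RN, TGAGTCA stood 223 bases before one start, and TATAAA 30 bases before another with an overlapping match on the opposite strand at 32. None of the 4 sets of letters was found in the IL1B stretch. A match is a string of letters and not a measured binding site.

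In untreated fibroblasts the RNA of the family was mostly that of the IL-1 receptor. IL1R1 stood at 222 normalized reads per kilobase of exons, IL1RAP at 21.4 and IL18 at 7.01. IL1B (1.32), IL1RL1 (0.890), IL33 (0.691) and IL1A (0.643) were near the limit of detection, and IL1RN was at 0 reads in both libraries, which allows up to 3 reads. Before any treatment IL1R1 and IL1RAP were thus the most abundant of the 8, as the plot of levels by library shows.

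**Figure D1:**
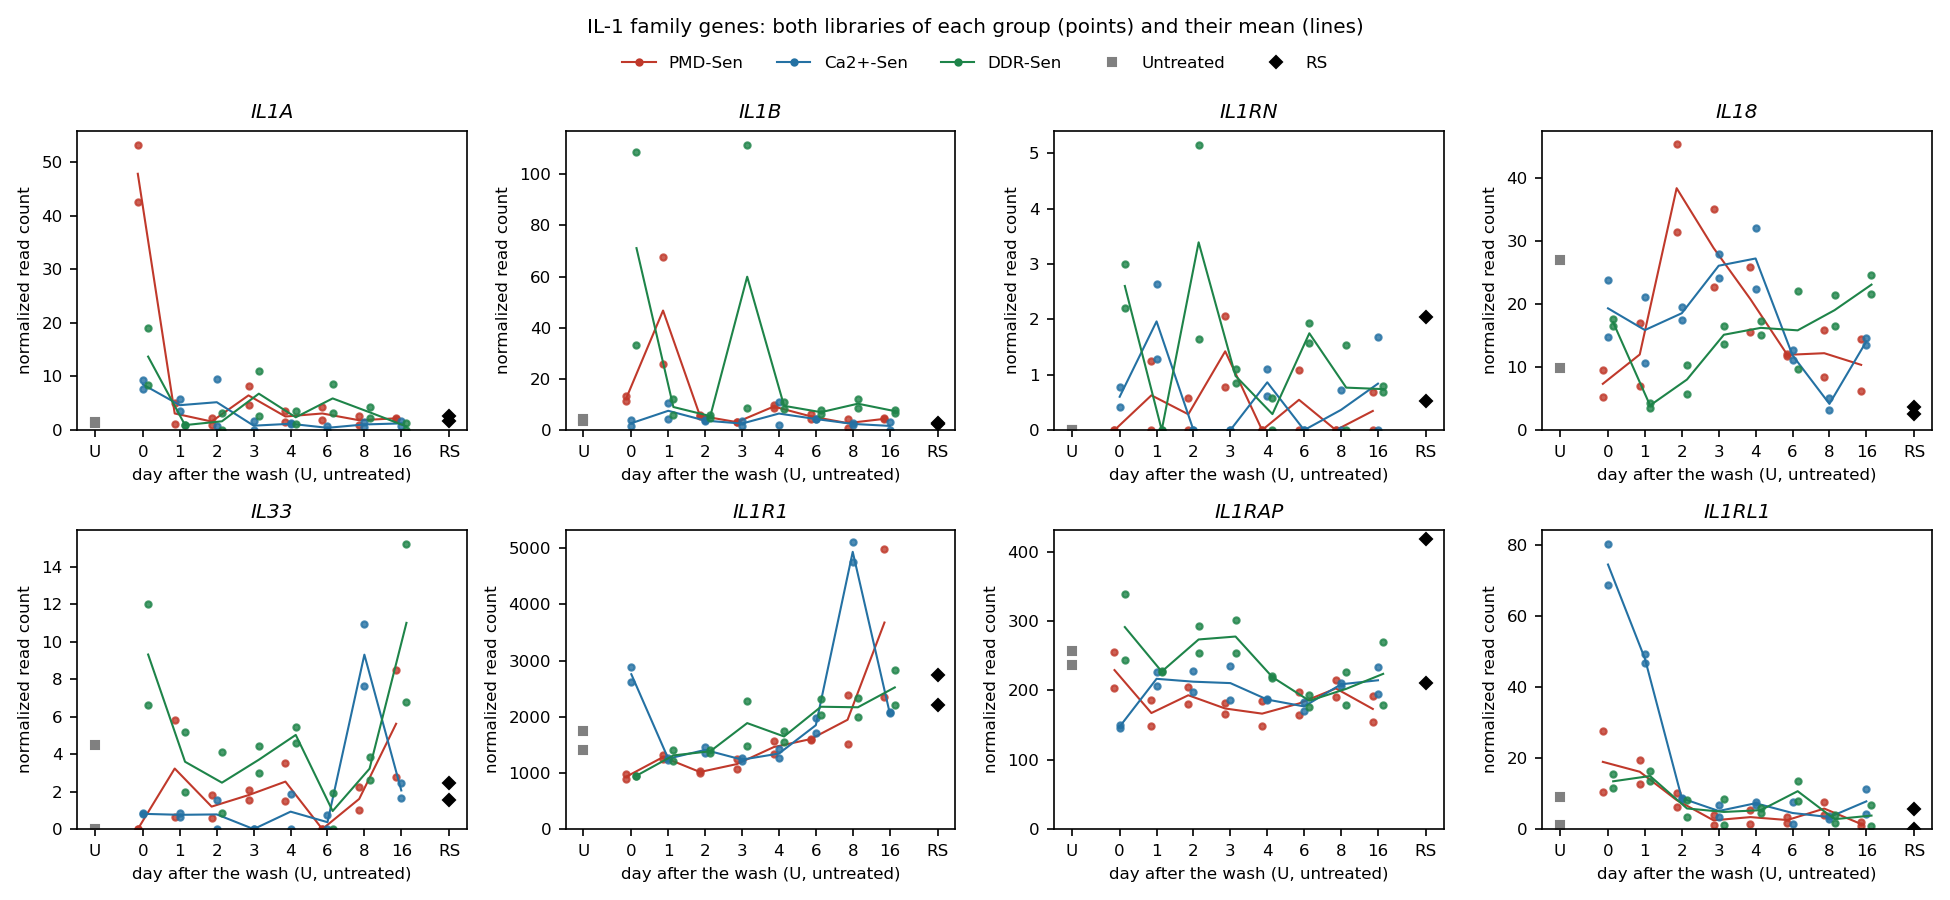
Normalized read counts (linear axes from 0, each panel on its own scale) of the 8 genes against day after the wash, with U for untreated and RS at the right; points are the 2 libraries of a group and lines join the group means of PMD-Sen, Ca2+-Sen and DDR-Sen. IL1A peaks on day 0 of PMD-Sen at 53.1 and 42.5, IL1RL1 on day 0 of Ca2+-Sen at 68.8 and 80.3, and IL1R1 on day 8 of Ca2+-Sen at 4756 and 5111.

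Over the 5 tested genes, 4 of 40 tests against untreated cells were called in PMD-Sen, where 18.5% of all gene tests were called. In Ca2+-Sen 6 of 40 were called against 18.1% of all gene tests, in DDR-Sen 6 of 40 against 20.8%, and in RS 2 of 5 against 23.1%. At an unadjusted p under 0.05 there were 9, 9, 8 and 2, and the share of all gene tests at that threshold was not taken. The counts of calls were small, and IL1B, IL18 and IL1RL1 had mean levels of only 11.8, 16.2 and 11.1, which limits calls. No difference of the family from all genes is read from these counts. What follows describes which genes and days gave the calls. IL1R1 gave 11 of the 18 calls (7 higher, 4 lower), IL1B 3, IL1RL1 2, and IL1RAP and IL18 1 each.

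IL1A, the ligand released from damaged cells, was highest on the day the SDS was washed away. The untreated libraries held 1 read each (levels 1.23 and 1.5), and the PMD-Sen libraries of day 0 held 56 and 41 reads (53.1 and 42.5). Both stood far above the untreated pair, and no library of another group was as high. The ratio of pooled reads was 35.5, with an exact 95% interval of 9.58 to 298 that, as all such intervals here, covers counting error only. One day later the libraries held 8 reads and 1 read (5.03 and 1.17). DXR and KCl gave smaller numbers on the same day. The DDR-Sen libraries of day 0 held 19 and 38 reads (8.36 and 19.0; ratio 9.88, 2.61 to 83.6), and the Ca2+-Sen libraries held 18 and 12 (7.65 and 9.35; ratio 6.10, 1.55 to 52.7). All 4 lay above the untreated pair. Day 3 of PMD-Sen, with 6 and 8 reads (ratio 4.60, 1.06 to 41.7), was the only later group whose interval stayed above 1. On day 16 levels were 2.07 and 2.31 in PMD-Sen, 0.815 and 1.68 in Ca2+-Sen, and 1.36 and 0 in DDR-Sen, and RS stood at 1.63 and 2.61. IL1A was under the limit for testing. With every gene above 0 tested, its deposited log2 fold change on day 0 of PMD-Sen was 5.14 ± 1.22 (SE), called at an adjusted p of 0.000226, where 19.1% of genes were called. That of DDR-Sen on day 0, 3.33 ± 1.42, missed the threshold (adjusted p = 0.141). Neither difference of PMD-Sen from the other inducers on day 0 was called in the same way of testing, at 1.81 ± 1.87 against DDR-Sen (adjusted p = 0.951) and 2.50 ± 2.00 against Ca2+-Sen (adjusted p = 0.614).

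IL1B, the ligand that needs cutting by caspase-1, rose in 3 of the 24 treated groups, 2 of DDR-Sen and 1 of PMD-Sen. It passed the limit for testing only through these groups. Each untreated library held 3 reads (3.69 and 4.50). On day 0 of DDR-Sen the libraries held 76 and 217 reads (33.4 and 109), and the log2 fold change was 4.13 ± 0.83 (17.5-fold, adjusted p = 7.67e-06). Both libraries were far above untreated ones, though 3.25-fold apart from each other, and without the shallower one the log2 ratio of the means was 3.03. In PMD-Sen the call fell on day 1. On day 0 the libraries stood at 13.3 and 11.4, both already above the untreated pair (25 reads against 6, ratio 3.05, 1.22 to 9.10), without a call (1.60 ± 1.25, adjusted p = 0.338), and on day 1 at 25.8 and 67.7 (3.50 ± 0.90, 11.3-fold, adjusted p = 0.000962). On day 1 the ratio without the shallower library was 2.65 on the log2 scale. By day 2 the PMD-Sen libraries were at 5.49 and 5.71. The third call rests mostly on 1 library. On day 3 of DDR-Sen the deeper library held 20 reads (8.56) and the shallower one 101 (111), 13-fold apart. The log2 fold change was 3.86 ± 1.04 (adjusted p = 0.0034), and without the shallower library the log2 ratio fell to 1.06. No call was made in the 8 Ca2+-Sen groups, whose libraries ranged from 0 to 11.1, nor in RS at 2.44 and 2.61. In the later DDR-Sen groups, days 4 to 16, every library lay between 6.28 and 12.2 and so above both untreated ones, and none of these groups was called.

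Markers of white blood cells, which make much IL-1β, were low and differed between groups. Of the 8 markers listed, 2 (CD14 and CSF1R) passed the limit for testing. Of these, 1 was called higher on day 0 of DDR-Sen and 1 on day 1 of PMD-Sen, and none on day 3 of DDR-Sen. The summed level of all 8 was 30.6 in untreated cells, 34.5 on day 0 of PMD-Sen, 62.8 on day 0 of Ca2+-Sen, 88.9 on day 0 of DDR-Sen, 59.3 on its day 3 and 55.4 on day 1 of PMD-Sen, with CD14 the most abundant on day 0 of all 3. CSF1R was highest on day 1 of PMD-Sen, at 42.1. The sum was highest in RS at 214, of which CD14 gave 200. The pan-leukocyte gene PTPRC, ITGAM, CD163 and CD3E were all below 1 in untreated cells, and ITGAM reached 11.9 on day 0 of Ca2+-Sen and PTPRC 19.7 on day 2 of DDR-Sen. Their part in the result was not tested. Fibroblast markers dominated in untreated cells (COL1A1 at 273000), and they moved as well. Of the 8 listed, 6 fell and 1 rose on day 0 of PMD-Sen (list median −0.95), 6 fell and 2 rose on day 0 of Ca2+-Sen (−0.41), and 1 fell on day 0 of DDR-Sen (−0.08). Their summed level went from 590759 in untreated cells to 510566, 241523 and 583329 on these days. On day 1 of PMD-Sen 6 fell (list median −1.25) and the sum was 312219. On day 3 of DDR-Sen 1 fell (−0.06) and the sum was 566212. KIT and TEK, listed for mast and endothelial cells, were at 336 and 2317 in untreated cultures. KIT was the only 1 of 6 mast cell markers tested, and none of the others exceeded 7.64 in any group. KIT was at 47.4 on day 0 of PMD-Sen, 28.3 on day 0 of Ca2+-Sen and 245 on day 0 of DDR-Sen. It was at 71.5 on day 1 of PMD-Sen and at 578 on day 3 of DDR-Sen. The part of these markers in the results was not tested.

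IL18, the other caspase-1 substrate, gave no call after the 3 agents and was lower in RS. Its untreated libraries were themselves 2.74-fold apart, with 8 and 18 reads (9.85 and 27.0), so 20 of 25 treated groups overlapped them. The highest group was day 2 of PMD-Sen, with 99 and 55 reads (45.3 and 31.4), both above the untreated pair, and its log2 fold change of 1.08 ± 0.62 was not called (adjusted p = 0.274). In 4 groups both libraries were below the untreated pair. These were day 0 of PMD-Sen (9.49 and 5.18, ratio of pooled reads 0.423, 0.208 to 0.829; −1.31 ± 1.03, adjusted p = 0.336), day 1 of DDR-Sen (3.49 and 4.33; −2.24 ± 1.00, adjusted p = 0.105) and day 8 of Ca2+-Sen (3.19 and 5.12; −2.14 ± 0.99, adjusted p = 0.0834), and RS. RS was lowest, with 9 and 5 reads (3.66 and 2.61). There the log2 fold change of −2.53 ± 1.00 was called at an adjusted p of 0.0499, a call that was lost when all genes above 0 were tested. Without the shallower untreated library the log2 ratio in RS was −1.65.

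IL33, the nuclear ligand of IL1RL1, and the antagonist IL1RN were carried by few reads everywhere. IL33 had 0 and 3 reads in untreated cells (0 and 4.50) and no more than 39 reads in any group. The levels with most reads were those of day 0 of DDR-Sen (6.60 and 12.0; ratio 4.51, 1.43 to 22.8), day 16 of DDR-Sen (6.81 and 15.2; 5.26, 1.63 to 27.0) and day 8 of Ca2+-Sen (7.65 and 11; 4.54, 1.4 to 23.4). In these 3 groups, and on day 4 of DDR-Sen (4.62 and 5.43), both libraries lay above both untreated ones. IL1RN gave 57 reads in all 52 libraries together. Its most reads in a group were 11, with 5 and 6 on day 0 of DDR-Sen (2.20 and 3.01), where the exact interval of the ratio to untreated cells began at 0.870 and so included 1. With 2 and 6 reads on day 2 of DDR-Sen (1.64 and 5.15), the interval began at 1.06, with counting error alone covered. With every gene above 0 tested, the log2 fold change of that group, 3.76 ± 2.84, was not called (adjusted p = 0.977). No difference of the antagonist was called in any treated group at this depth.

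IL1R1, the signalling receptor for both IL-1 ligands, was lower at the end of exposure to SDS or DXR and higher at the end of exposure to KCl, and it was higher on day 16 of Ca2+-Sen and DDR-Sen and in RS. The untreated libraries held 1145 and 1161 reads (1409 and 1741). On day 0 the PMD-Sen libraries stood at 888 and 974 (−0.76 ± 0.15, 0.592-fold, adjusted p = 1.4e-06) and the DDR-Sen libraries at 952 and 949 (−0.73 ± 0.14, 0.604-fold, adjusted p = 2.2e-06). The Ca2+-Sen libraries of that day stood at 2619 and 2893 (0.81 ± 0.12, 1.75-fold, adjusted p = 8.13e-11). All 3 pairs lay outside the untreated pair, 2 of them below and 1 above. Of the tested genes, 20.2% were lower and 19.8% higher on day 0 of PMD-Sen, 14.9% lower and 12.9% higher in DDR-Sen, and 26.5% lower and 23.6% higher in Ca2+-Sen.

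After the wash the receptor moved upwards in PMD-Sen and DDR-Sen. In PMD-Sen it was not called on day 1 (1241 and 1322; −0.30 ± 0.13, adjusted p = 0.0951), was lower on day 2 (993 and 1038; −0.63 ± 0.12) and day 3 (1252 and 1061; −0.44 ± 0.14), and was at 1593 and 1611 on day 6. On day 16 both PMD-Sen libraries were above the untreated pair but far from each other, at 2359 and 4993, and the log2 fold change of 1.22 ± 0.54 was not called (adjusted p = 0.0913). In DDR-Sen it was higher on day 6 (2038 and 2316; 0.47 ± 0.13), day 8 (2338 and 1997; 0.46 ± 0.14) and day 16 (2212 and 2830; 0.68 ± 0.16, 1.60-fold, adjusted p = 0.000109). RS was higher as well, at 2211 and 2740 (0.65 ± 0.21, 1.57-fold, adjusted p = 0.0101). The share of genes called on day 16 was 9.63% higher and 11.5% lower in PMD-Sen, 5.79% and 6.08% in Ca2+-Sen, and 13.2% and 16.7% in DDR-Sen. In RS 11.6% were higher and 11.5% lower.

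Ca2+-Sen followed another course. IL1R1 was back at 1271 and 1237 on day 1 and at 1268 and 1204 on day 3, both pairs below untreated cells without a call (adjusted p = 0.0539 and 0.0511). On day 8 it reached 4756 and 5111, the highest level of the 26 groups (1.65 ± 0.11, 3.14-fold, adjusted p = 5.03e-51). On day 16 it was at 2067 and 2082 (0.40 ± 0.12, 1.32-fold, adjusted p = 0.00688). A marker listed for white blood cells, CD14, stood above its untreated level in the groups where IL1R1 was high late. TEK, listed for endothelial cells, did so as well except on days 6 and 8 of DDR-Sen (1862 and 2182). White blood cell markers summed to 209 on that day 8, of which CD14 gave 203, and CSF1R was not called. CD14 stood at 192 on day 16 of PMD-Sen, 182 on day 16 of DDR-Sen, 52.9 on day 16 of Ca2+-Sen and 200 in RS, against 21.7 in untreated cells. On days 6 and 8 of DDR-Sen it was at 43.5 and 90.3. TEK stood at 2317 in untreated cells, 5437 on day 8 of Ca2+-Sen, 4001 on day 16 of PMD-Sen, 3293 on day 16 of DDR-Sen, 2867 on day 16 of Ca2+-Sen and 3682 in RS. Of the 3 tested endothelial markers 1 was called on day 8 of Ca2+-Sen, with a list median of 0.01, and the defining gene CDH5 reached no more than 1.48 in any group. The 6 epithelial markers, none of them tested, summed to 13.8 in untreated cells, 12.0 on that day and 3.46 in RS. Of the 8 fibroblast markers, 5 were higher and 2 lower on day 8 of Ca2+-Sen (list median 0.35). On day 16, 4 were higher and 1 lower in PMD-Sen (0.46), 5 and 2 in DDR-Sen (0.39), and 3 and 1 in Ca2+-Sen (0.07). In RS 3 were higher and 1 lower (0.53). In DDR-Sen 1 was higher and 4 lower on day 6 (−0.16), and 2 and 2 on day 8 (0.07). KIT, the only mast cell marker tested and at 336 in untreated cells, was called higher on day 8 of Ca2+-Sen (531) and day 16 of PMD-Sen (646). It was also called on days 8 and 16 of DDR-Sen (740 and 718). It was not called on day 6 of DDR-Sen (427), day 16 of Ca2+-Sen (466) or in RS (527). The part of these markers in the result was not tested. In the order of group means, Ca2+-Sen on day 8 (4934) was followed by PMD-Sen on day 16 (3676), Ca2+-Sen on day 0 (2756), DDR-Sen on day 16 (2521) and RS (2475). The lowest were PMD-Sen on day 2 (1016), DDR-Sen on day 0 (950) and PMD-Sen on day 0 (931). Neighbours in the order overlapped in their libraries except where PMD-Sen on day 2 meets PMD-Sen on day 3 and DDR-Sen on day 0. Against the untreated pair, both libraries were above in 8 groups, both below in 8, and overlapping in 9.

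IL1RAP, the accessory chain that IL1R1 and IL1RL1 share, was steadier than its partners. Its untreated libraries held 193 and 171 reads (238 and 256). Only day 0 of Ca2+-Sen was called among 25 tables, at 150 and 146 (−0.74 ± 0.22, 0.60-fold, adjusted p = 0.00282). On that day the accessory chain and IL1R1 moved in opposite directions. The log2 fold change was negative in 21 of 25 tables with a median of −0.24, and both libraries lay below the untreated pair in 19 groups. These tables share the untreated libraries, so the repeated sign is not repeated evidence. The 6 groups that overlapped were days 0, 2, 3 and 16 of DDR-Sen, day 0 of PMD-Sen (204 and 255) and RS, whose libraries were at 210 and 418.

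**Figure D2:**
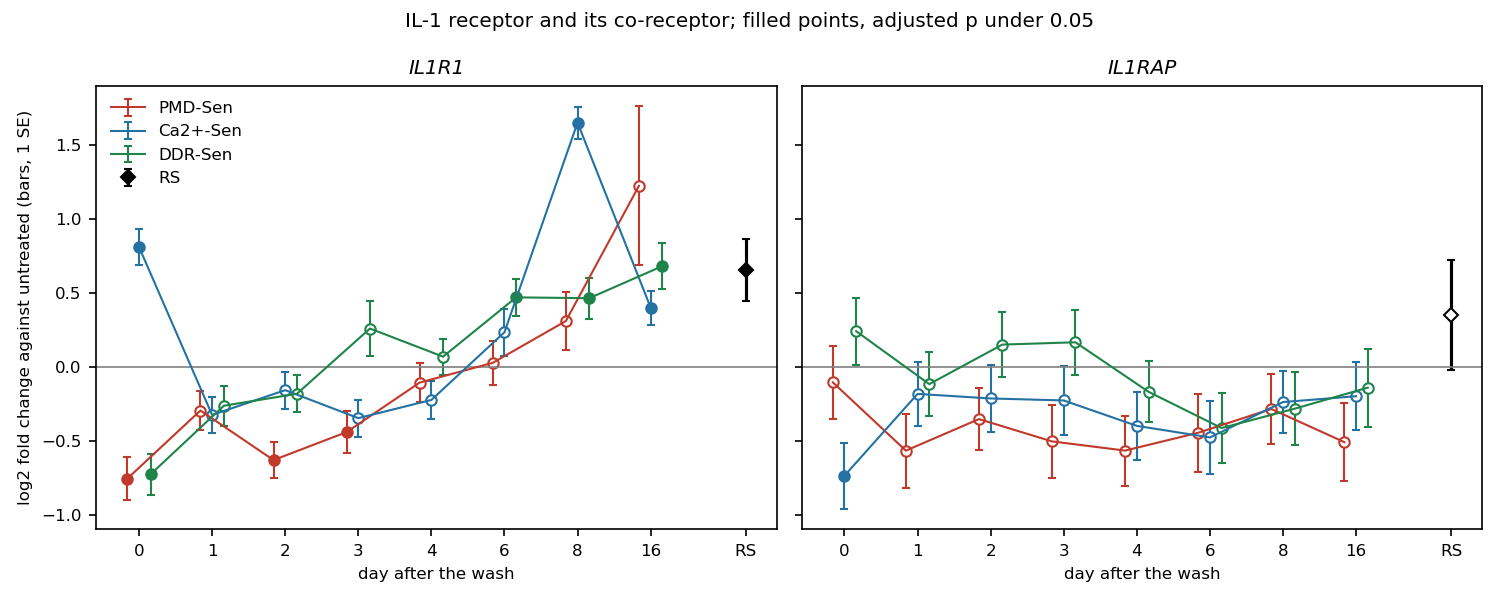
Log2 fold change against untreated cells (points, bars 1 SE, 2 libraries a group) of IL1R1 and IL1RAP by day after the wash, with RS at the right; filled points have an adjusted p under 0.05. IL1R1 starts at −0.76 in PMD-Sen and −0.73 in DDR-Sen but at 0.81 in Ca2+-Sen, and all 3 lie above 0 on day 16, while only day 0 of Ca2+-Sen is filled for IL1RAP.

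IL1RL1, the IL-33 receptor, rose sharply after KCl and was back near its start 2 days after the wash. The untreated libraries held 1 and 6 reads (1.23 and 9.0). On day 0 of Ca2+-Sen the libraries held 162 and 103 reads (68.8 and 80.3), a log2 fold change of 3.94 ± 0.72 (15.4-fold, adjusted p = 2.75e-07). On day 1 they held 77 and 53 (49.3 and 46.8), a log2 fold change of 3.30 ± 0.80 (9.86-fold, adjusted p = 0.000738). Both pairs lay apart from each other and from all other groups. The mean level of IL1RL1 over the 26 groups was 11.1, with 74.5 and 48.0 in these 2 groups. The gene thus passed the limit for testing only through the groups in which it was called. On day 2 the libraries were at 8.61 and 8.74, within the untreated pair. The size of the rise depends on the untreated library it is set against. Without the deeper untreated library the log2 ratios of means were 3.05 and 2.42 on days 0 and 1, and without the shallower one 5.92 and 5.29. PECAM1, listed for endothelial cells, went from 2.18 in untreated cells to 108 on day 0 of Ca2+-Sen, its highest group, while the summed endothelial list went from 2359 to 1940 and its most abundant gene TEK from 2317 to 1761. Of its 6 genes 3 were tested there, with 1 higher and 1 lower, CDH5 stayed at or below 1.48 in every group, and their part in the result was not tested. PMD-Sen and DDR-Sen gave lower levels without a call. PMD-Sen stood at 27.5 and 10.4 on day 0 (1.93 ± 1.17, adjusted p = 0.19) and at 19.5 and 12.8 on day 1, and DDR-Sen at 15.4 and 11.5 on day 0 (1.44 ± 1.08, adjusted p = 0.357) and at 13.5 and 16.4 on day 1. All 8 of these libraries were above both untreated ones, and the ratios of pooled reads were 4.08 (1.81 to 10.8) and 3.62 (1.61 to 9.56) in PMD-Sen and 2.87 (1.31 to 7.46) and 3.08 (1.38 to 8.08) in DDR-Sen. RS had 14 reads in the deeper library (5.70) and 0 in the shallower one.

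The neighbouring receptor gene IL18R1, which binds IL-18, was high on day 0 of both Ca2+-Sen and PMD-Sen. Its libraries rose from 45.5 and 39.0 in untreated cells to 192 and 199 on day 0 of Ca2+-Sen (2.21 ± 0.32, 4.62-fold, adjusted p = 4.76e-11) and to 184 and 126 on day 0 of PMD-Sen (1.87 ± 0.40, 3.67-fold, adjusted p = 1.49e-05). In DDR-Sen on day 0 they were at 19.8 and 21.1, below the untreated pair and not called. In the plot of both genes, IL1RL1 was still high on day 1 of Ca2+-Sen when IL18R1 was not. IL18R1 belongs to a list of 8 further receptors and binding proteins, of which 5 were tested. Its calls were 10 higher and 2 lower among 125 gene tests over the 25 tables, where 18.1% to 23.1% of all gene tests were called. IL1RAPL1, a receptor-like protein of nerve cells, gave 5 of the higher calls, such as 1.24 ± 0.34 on day 1 of PMD-Sen (2.36-fold, adjusted p = 0.0023). IL18BP, a soluble binder of IL-18, rose on day 0 of Ca2+-Sen (0.83 ± 0.34, adjusted p = 0.0286) and on day 16 of DDR-Sen (0.97 ± 0.37, adjusted p = 0.0331). SIGIRR, a receptor that dampens IL-1 signalling, fell on day 0 of Ca2+-Sen (−0.88 ± 0.32, adjusted p = 0.014) and day 16 of DDR-Sen (−0.97 ± 0.35, adjusted p = 0.0246). The decoy receptor IL1R2 stayed at or below 3.24 in all groups and was not tested. Neither were any of the 6 remaining ligands (IL36A, IL36B, IL36G, IL36RN, IL37 and IL1F10), none of which exceeded 2.10.

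**Figure D3:**
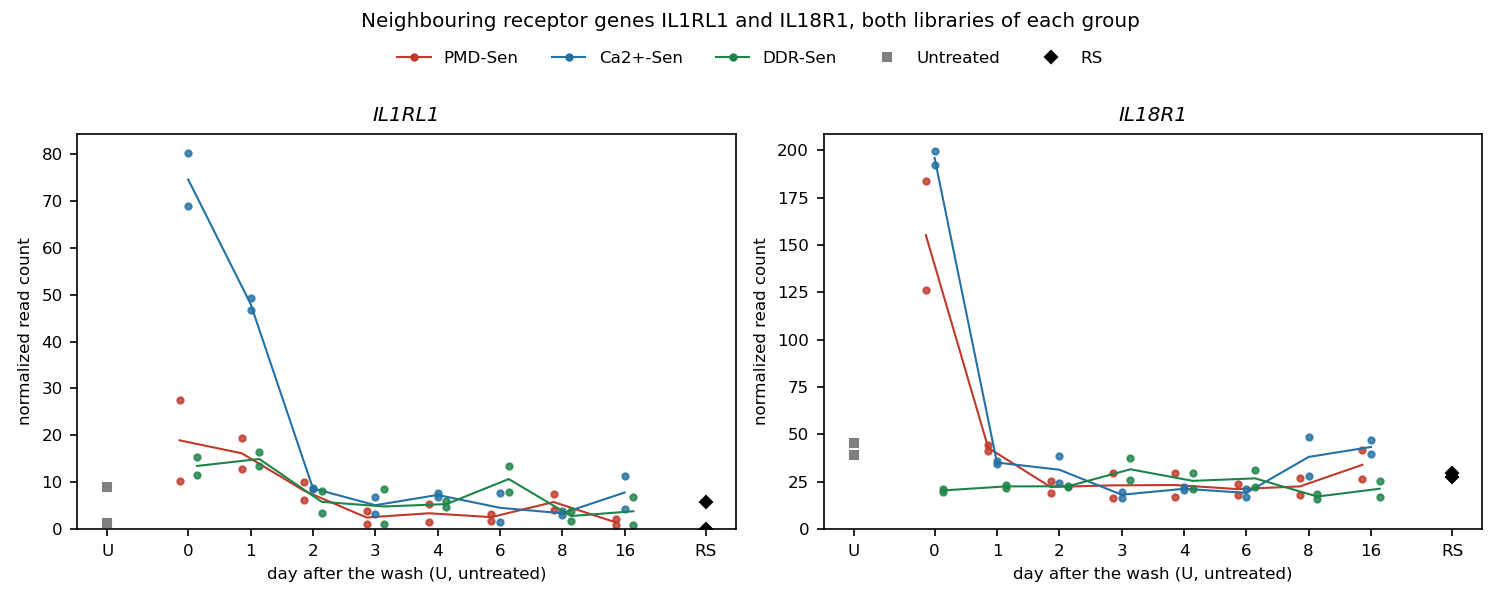
Normalized read counts (linear axes from 0) of the adjacent genes IL1RL1 and IL18R1 by day after the wash, with U for untreated and RS at the right; points are the 2 libraries of a group and lines join group means. IL1RL1 is highest on days 0 and 1 of Ca2+-Sen, and IL18R1 on day 0 of Ca2+-Sen (192 and 199) and of PMD-Sen (184 and 126).

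Among genes that cut or release the ligands, the largest change on day 0 of each inducer was a fall, that of GSDMD. Its 2 libraries differed more than 4-fold in 12 treated groups. Of 12 listed, 9 were tested, and 16 of 225 gene tests were higher and 30 lower over the 25 tables, near the 18.1% to 23.1% called among all gene tests. On day 0 of PMD-Sen, when 19.8% of all tested genes were higher and 20.2% lower, 3 of the 9 rose and 5 fell, with a list median of −0.54 on the log2 scale against 0.00 for all tested genes. CASP1, which encodes caspase-1, fell from 415 and 406 to 163 and 130 (−1.49 ± 0.24, 0.357-fold), and PYCARD, the adaptor that joins it to the sensor, fell to 0.348-fold (−1.52 ± 0.39, adjusted p = 0.000372). The sensors NLRC4 (2.22 ± 0.93, adjusted p = 0.0445) and NLRP1 (1.14 ± 0.15) rose, as did CASP4 (0.88 ± 0.12). The calpains CAPN1 and CAPN2, proteases that can cut IL-1α, fell to 0.486-fold and 0.687-fold. In DDR-Sen on day 0, where IL1B rose most, CASP1 was higher, at 494 and 757 (0.61 ± 0.21, 1.52-fold, adjusted p = 0.0176). In Ca2+-Sen on day 0 CASP1 was at 485 and 438 and was not called, NLRP1 fell (−0.76 ± 0.16) and CASP8 fell (−0.59 ± 0.19). NLRP3, AIM2 and CASP5 were too low to test.

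GSDMD, whose product gasdermin D forms the pores through which IL-1β leaves the cell, had the largest fall of the list on day 0 of all 3 inducers. Untreated libraries were at 228 and 193. On day 0 it was at 13.3 and 4.15 in PMD-Sen (−4.57 ± 0.49, adjusted p = 1.96e-19), at 10.2 and 7.01 in Ca2+-Sen (−4.57 ± 0.39) and at 11 and 10.0 in DDR-Sen (−4.32 ± 0.35). It was called lower in 10 of 25 tables. In 12 of the 25 treated groups, however, its 2 libraries differed more than 4-fold, as on day 3 of PMD-Sen (129 and 6.20) and in RS (106 and 7.31), and the cause was not tested.

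The signalling chain below the receptor gave few calls. All 16 listed genes were tested, with 18 of 400 gene tests higher and 30 lower, below the 18.1% to 23.1% of all gene tests, and the list median stayed between −0.07 and 0.16 over the 25 tables. Day 0 of Ca2+-Sen, when 23.6% of all genes were higher and 26.5% lower, held 6 higher and 3 lower. TAB2, a scaffold of the kinase TAK1, rose to 2.32-fold (1.21 ± 0.09), and PELI1, a ubiquitin ligase of the pathway, rose to 2.40-fold (1.27 ± 0.32). The kinase IRAK4 fell to 0.487-fold (−1.04 ± 0.15). In PMD-Sen on day 0 PELI1 rose 2.01-fold (1.01 ± 0.37), the inhibitory kinase IRAK3 rose 1.81-fold (0.86 ± 0.25), and the adaptor MYD88 fell to 0.577-fold (−0.79 ± 0.14). IRAK1 was the gene of the chain called lower most often, in 11 of 25 tables, with 0.656-fold on day 0 of DDR-Sen (−0.61 ± 0.10) and 0.657-fold on its day 16.

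Genes known to respond to IL-1 moved in both directions, and lower calls outnumbered higher ones. Of 24 listed, 19 were tested, and 43 of 475 gene tests were higher and 106 lower over the 25 tables. These calls made up 31.4% of the tests of the list, above the 18.1% to 23.1% of all gene tests. Many of these genes also respond to other signals. On day 0 of PMD-Sen, when IL1A peaked and 19.8% of all genes were higher and 20.2% lower, 8 rose and 6 fell, and the list median was 0.64. The neutrophil chemokines CXCL2 (42.6-fold, 5.41 ± 1.2), CXCL3 (23.2-fold, 4.53 ± 0.64) and CXCL8 (22.9-fold, 4.51 ± 1.19, adjusted p = 0.000659) led the rise, followed by PTGS2, the inducible enzyme of prostaglandin synthesis (19.2-fold), and IL6 (6.90-fold). CXCL2 itself went from 1 and 7 reads in untreated cells to 340 and 160 (323 and 166), so its fold rests on few untreated reads. In the same libraries the chemokine CCL2 fell to 0.0736-fold (−3.76 ± 0.26) and SOD2, the mitochondrial superoxide dismutase, to 0.368-fold (−1.44 ± 0.12).

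In Ca2+-Sen, 3 of the 19 rose on day 0 and 6 fell, with a list median of −0.59, where 23.6% of all genes were higher and 26.5% lower. TNFAIP6, a hyaluronan-binding protein, rose from 33.2 and 37.5 to 600 and 658 (17.9-fold, 4.16 ± 0.26), PTGS2 rose 9.27-fold (3.21 ± 0.88) and NFKBIA, the NF-κB inhibitor, rose 1.92-fold. LIF fell to 0.174-fold (−2.52 ± 0.12) and ICAM1 to 0.401-fold. On day 0 of DDR-Sen, when IL1B was highest, 3 rose and 5 fell, with a list median of 0.15, where 12.9% of all genes were higher and 14.9% lower. The collagenase MMP1 (2.29-fold, 1.19 ± 0.46) and stromelysin MMP3 (2.78-fold, 1.48 ± 0.51) rose, and BIRC3, an NF-κB target that blocks cell death, fell to 0.303-fold (−1.72 ± 0.27).

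On day 16 the list of 19 held 1 higher and 2 lower genes in PMD-Sen, where 9.63% of all genes were higher and 11.5% lower. It held 1 and 5 in Ca2+-Sen (5.79% and 6.08% of all genes), 3 and 4 in DDR-Sen (13.2% and 16.7%), and 3 and 3 in RS (11.6% and 11.5%). CCL2 rose in all 4, to 2.21-fold in PMD-Sen, 1.98-fold in Ca2+-Sen, 3.02-fold in DDR-Sen and 5.49-fold in RS (2.46 ± 0.96, adjusted p = 0.0457). IL6 rose in DDR-Sen (2.12-fold) and in RS (2.64-fold). BIRC3 fell in all 4, by the most in DDR-Sen (0.207-fold, −2.27 ± 0.28), and IL11 fell to 0.260-fold in PMD-Sen and 0.266-fold in DDR-Sen. BIRC3 was called lower in 20 of 25 tables and the NF-κB feedback gene TNFAIP3 in 16, and neither was called higher in any.

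**Figure D4:**
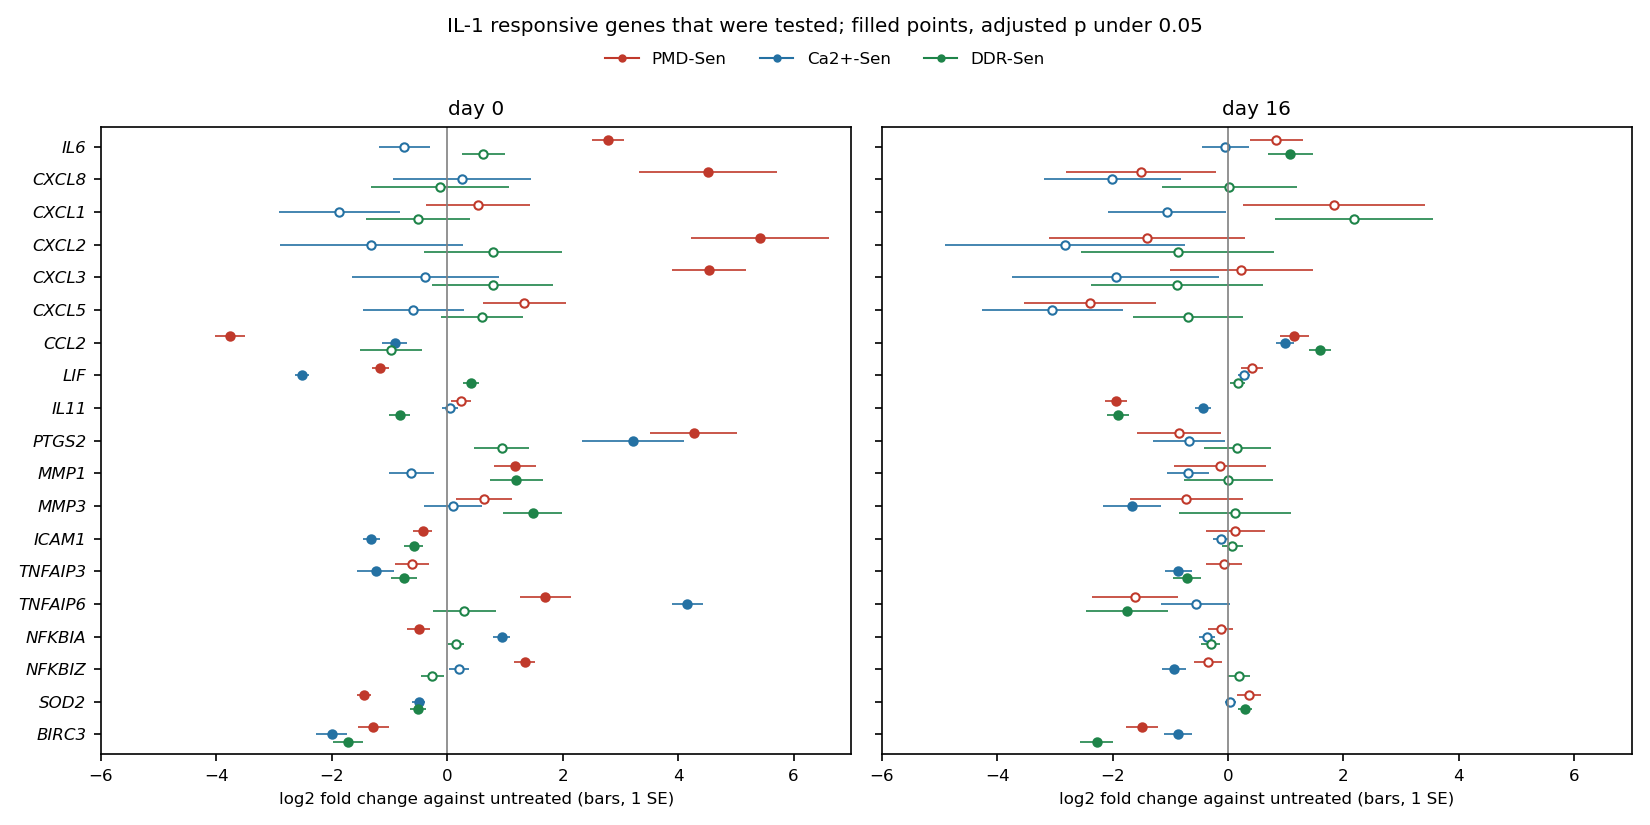
Log2 fold change against untreated cells (points, bars 1 SE, 2 libraries a group) of the 19 tested IL-1 responsive genes on days 0 and 16 of PMD-Sen, Ca2+-Sen and DDR-Sen; filled points have an adjusted p under 0.05. CXCL2, CXCL3 and CXCL8 are filled and above 4 on day 0 of PMD-Sen only, CCL2 lies below 0 on day 0 and above 0 on day 16 for all 3 inducers, and BIRC3 is below 0 throughout.

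To see whether the inducers differed from each other, the fold changes of the same day were subtracted. The shared untreated libraries cancel in the difference, while their error was counted more than once, so these tests give too few calls. Between PMD-Sen and Ca2+-Sen 2 of 40 tests in the family were called, where 6.47% of all gene tests were. IL1R1 was lower in PMD-Sen on day 0 (−1.57 ± 0.19, 0.338-fold, adjusted p = 2.36e-15) and on day 8 (−1.34 ± 0.22, 0.395-fold, adjusted p = 1.03e-06). Between Ca2+-Sen and DDR-Sen 4 of 40 were called, against 7.83% of all gene tests. IL1R1 was higher in Ca2+-Sen on day 0 (1.54 ± 0.18, adjusted p = 1.92e-15) and day 8 (1.19 ± 0.18, adjusted p = 4.22e-09). On day 0 IL1RAP was lower (−0.98 ± 0.32, adjusted p = 0.00821), as was IL1B (−4.69 ± 1.81, adjusted p = 0.028). The call of IL1B, a gene that passed the limit only through treated groups, was lost when all genes above 0 were tested.

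Between PMD-Sen and DDR-Sen none of 40 Wald tests was called, where 6.55% of all gene tests were. At an unadjusted p under 0.05 there were 6, and the share of all gene tests at that threshold was not taken. For IL1R1 on day 0 the difference was −0.03 ± 0.20 on the log2 scale, with a 95% interval from −0.43 to 0.36. IL1B was at 13.3 and 11.4 in PMD-Sen against 33.4 and 109 in DDR-Sen on that day (−2.53 ± 1.5, adjusted p = 0.22). With the error of the untreated libraries taken off, 5 of the 40 were called, where 12.1% of all gene tests were. IL1B was then lower in PMD-Sen on day 0 (adjusted p = 0.0146) and on day 3 (−4.25 ± 1.35, adjusted p = 0.036), the latter set against the DDR-Sen pair of 20 and 101 reads. IL1R1 was lower in PMD-Sen on day 2 (−0.45 ± 0.12, adjusted p = 0.00297) and day 3 (−0.70 ± 0.16, adjusted p = 0.000762), and IL18 was higher on day 2 (2.27 ± 0.79, adjusted p = 0.0285). The rise of IL1RL1 after KCl was called against untreated cells alone. Its difference from PMD-Sen on day 0 was −2.01 ± 1.37 (adjusted p = 0.257) and from DDR-Sen 2.50 ± 1.30 (adjusted p = 0.122), although the Ca2+-Sen libraries did not overlap those of either. With the untreated error taken off, both differences were called (adjusted p = 0.03 and 0.0026), where 12.5% and 14.9% of all gene tests were.

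Between day 0 and day 16 of the same inducer 3 of 15 tests were called, where 25.1% of all gene tests were, and all 3 were IL1R1. The receptor was higher on day 16 than on day 0 in PMD-Sen (1.98 ± 0.56, 3.94-fold, adjusted p = 0.00234) and DDR-Sen (1.41 ± 0.21, 2.65-fold, adjusted p = 1.26e-09). In Ca2+-Sen it was lower (−0.41 ± 0.17, 0.753-fold, adjusted p = 0.0401), a call lost with all genes above 0 tested. With the untreated error taken off, 7 of the 15 were called, where 40.2% of all gene tests were. In PMD-Sen the libraries of day 16, 2359 and 4993, both lay above the 888 and 974 of day 0 in spite of their distance from each other.

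The genes whose levels most resembled those of each tested member over the 25 treated groups were found by Pearson's r of log2(level + 1), among genes with a mean level of at least 100. These values are descriptions, since all groups share 1 scale and days of a series are not independent. IL1R1 was closest to MMD (0.92) and IPMK (0.91), and IL1RL1 to CREM (0.90) and GALK2 (0.89). IL18 was closest to DNAJC8 (0.76) and VBP1 (0.73), IL1B to AC026471.1 (0.71) and FERMT1 (0.71), and IL1RAP to FUCA1 (0.71) and PTPRU (0.71). With 10 added in place of 1 before the logarithm, the 2 genes listed for IL1B were both replaced and 1 of those for IL1RL1, and those of the other 3 stayed.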

How the data were processed

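The submitters' processing notes name Trim Galore, HISAT2, HTSeq, featureCounts and DESeq2 with GRCh38 (hg38), without versions. The authors deposited, per gene, a mean normalized count over both groups compared (a signal that is never negative), a log2 fold change against untreated cells and its standard error (also log2). Their test ratio, unadjusted p-value and adjusted p-value are also in the files and were not used. Both files of a group hold 1 table, and the untreated files repeat that of RS. Other columns of sample values numbered 0.

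Low means are whole multiples of steps set by the 4 libraries compared. Size factors, library totals and whole reads per library were recovered from these steps, refined over 120 genes, of which 119 were solved. The tables were brought to a common scale through the untreated level of 8645 genes above 200 in every table (SD 0.00043 on the log2 scale). P-values come from a two-sided Wald test, adjusted by the Benjamini-Hochberg method over 14898 genes with a mean level of at least 10. The tests were tested on simulated data. No count test was run, since reads per library were recovered for few genes. Sequences are from RefSeq GRCh38.p14. Calculations used SciPy 1.17.1, pandas 2.3.3 and NumPy 2.4.6 under Python 3.11.15, with matplotlib 3.10.9 for plots.

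The genes and lists were chosen with earlier results of these data known. Named are the 8 genes, the 3 largest called changes of a list in a comparison with those needed for small counts, and the 2 genes most like each tested member. Other list genes were named after their values were seen. Alternatives were other limits on level, a log2 size of at least 1, other scalings, and the untreated error taken off the differences. Reads are counted without molecular identifiers. The value of 1 listed marker is not reported here.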

Additional observations from a re-analysis of the deposited data

Results flagged for a closer look

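These results stood out because the effects of 2 inducers on the same day differed by a test of the difference itself. On day 0, IL1R1 differed by −1.57 on the log2 scale between PMD-Sen and Ca2+-Sen, and by 1.54 between Ca2+-Sen and DDR-Sen. On day 8, IL1R1 differed by −1.34 between PMD-Sen and Ca2+-Sen and by 1.19 between Ca2+-Sen and DDR-Sen. On day 0, IL1B differed by −4.69 and IL1RAP by −0.98 between Ca2+-Sen and DDR-Sen. The call of IL1B was lost when all genes above 0 were tested. All 6 share the untreated libraries, whose error was counted more than once. With that error taken off, further differences were called, 5 of them between PMD-Sen and DDR-Sen.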

How the results depend on the processing

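With a log2 size of at least 1 required, the calls fell to 1 in PMD-Sen, 3 in Ca2+-Sen, 2 in DDR-Sen and 1 in RS. The share of all gene tests under that rule was not taken. In RS 1 call was left with a mean level of at least 100 and 1 with every gene above 0, since IL18 was then not tested or not called. With the error of the untreated mean taken off, the calls rose to 5 between PMD-Sen and DDR-Sen, 5 between PMD-Sen and Ca2+-Sen, 7 between Ca2+-Sen and DDR-Sen and 7 between day 0 and day 16. No called value changed direction under any alternative run. Direction was not secure near 0, as for IL1RL1 on day 3 of DDR-Sen, whose uncalled 0.0047 lay below the table median of 0.0068. With every gene above 0 tested, 3 calls were lost, those of IL18 in RS, of IL1B between Ca2+-Sen and DDR-Sen on day 0 and of IL1R1 between day 0 and day 16 of Ca2+-Sen. IL1R1 on day 3 of Ca2+-Sen became a call with library totals, with the table median removed and with a limit of 100, and on day 1 with a limit of 100. The pathway lists gave 255 calls, and 230 with a limit of 100. Leaving out each library in turn, a choice made after seeing the data and given as values with no test, changed the direction of none of the 18 calls, and the log2 ratios ranged from −3.11 to 5.92. No paired analysis was possible because the recovered reads could not be tied to the replicate numbers. For the same reason, and since reads per library were recovered for few genes, limma and a test without each replicate were not run. Depth limits IL1A, IL1RN and IL33 most, with 2, 0 and 3 reads in the untreated pair.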

Other observations

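The recovered reads of GSDMD fell into separate ranges. Of the 50 treated libraries, 31 had a level under 25 and 19 a level over 50. In 9 groups both libraries were under 25, in 3 both were over 50, and in 12 the libraries differed more than 4-fold. The groups with both libraries over 50 included day 1 of DDR-Sen, at 217 and 337, and day 2 of PMD-Sen, at 133 and 187. The untreated libraries were at 228 and 193.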
